A study of Mus musculus with 6 samples.

Results

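The family of miR-130 and miR-301 was followed in small RNA from primary mouse mesangial cells, which hold up the capillaries of the kidney glomerulus and can contract, with and without transforming growth factor beta1 (TGF-beta1), a cytokine that drives fibrosis. The family was taken as every row, of either arm, of the hairpins miR-130a, miR-130b, miR-301a and miR-301b, and 8 of the 778 miRNA rows in the table belonged to it. The table names them with the mouse prefix (mmu-miR-130a-3p, mmu-miR-130b-3p and so on), which is left out in most of the text. Levels are given in RPM, that is, as reads of the miRNA per 1000000 reads of its library total.

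The Control group held 3 libraries of cells without added cytokine, and the TGF-beta1 group held 3 libraries of cells that received 10 ng/ml for 72 h. Both groups grew in high glucose (25.5 mM) with 20% foetal bovine serum and were used at passages 3 to 6, so there was no low-glucose or low-serum arm. The sources used here do not say whether the libraries of a group came from separate animals or cultures, and p-values therefore measure only the spread between these libraries, which may be technical. In bulk samples, a change in the makeup of the culture and a change of RNA per cell cannot be told apart.

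The library totals, recovered from the deposited values, were 16478281 to 17623671 reads in Control and 17086815 to 20169254 reads in TGF-beta1. At these totals 1 read was worth 0.0496 to 0.0607 RPM, and a count of 0 leaves room for up to 3 reads, or 0.149 to 0.182 RPM. Intervals and limits taken from reads cover counting error only. The listed miRNAs took 79.5% to 79.8% of the reads in Control and 71.6% to 73.1% in TGF-beta1, and the median log2 change of the 408 miRNAs tested was -0.17. The labelled cell type was checked against miRNA markers of several cell types. Of 6 mesenchymal or contractile marker names, with miR-145-5p also entered as miR-145a-5p, 5 were listed. Led by miR-143-3p, they summed to 2587 to 2962 RPM in Control and 2609 to 3075 RPM in TGF-beta1. Within that sum miR-145-5p stood at 97.3 to 148.3 RPM in Control and 231 to 247 RPM in TGF-beta1, miR-199a-3p at 558 to 666 and 480 to 487 RPM, and miR-199a-5p at 11.9 to 15.9 and 5.53 to 9.52 RPM, each without overlap. Of 5 blood marker names, with miR-451 also entered as miR-451a, 2 were listed, at no more than 0.360 RPM. The endothelial miR-126-3p stayed at or below 0.0992 RPM. Of 3 skeletal muscle miRNAs all 3 were listed and summed to 3440 to 3646 RPM in Control and 3285 to 3465 RPM in TGF-beta1, nearly all of it miR-206-3p. MiR-1a-3p stood at 9.17 to 11.6 RPM in Control and 10.1 to 11.5 RPM in TGF-beta1, whereas miR-133a-3p had at most 3 reads in any library. All 7 epithelial miRNAs were listed and summed to 315 to 329 RPM in Control and 343 to 367 RPM in TGF-beta1, mostly as miR-192-5p. Among them miR-200a-3p stood at 12.0 to 13.4 RPM in Control and at 0.726 to 1.64 RPM in TGF-beta1. MiR-200b-3p (5.52 to 8.13 and 0.351 to 0.892 RPM) and miR-429-3p (3.52 to 4.62 and 0.279 to 0.298 RPM) were also lower. In contrast, miR-192-5p (290 to 304 and 337 to 361 RPM) and miR-194-5p (2.04 to 2.64 and 3.41 to 4.51 RPM) were higher in TGF-beta1, also without overlap. MiR-200c-3p and miR-141-3p were at 3 reads or fewer throughout. The part of these markers in the changes below was not tested.

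A miRNA is cut from a hairpin precursor, whose 5′ and 3′ sides give the 5p and 3p arms. One of the arms is usually kept in the Argonaute protein and pairs through its seed, bases 2 to 8, with sites in messenger RNAs, which are then repressed. The 3p arms of the family share their seed and are known as regulators of extracellular matrix and of the lipid-responsive nuclear receptor PPARγ in vascular and fibrotic tissue.

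The mature sequences below are those of RefSeq for GRCm38.p6, with the seed in capitals, and are shown because they set which arms can share targets and which can share reads. Of the 8 family rows 7 had a RefSeq sequence, and miR-301b-3p had none in the table used.
miR-130a-3p: cAGUGCAAuguuaaaagggcau
miR-130b-3p: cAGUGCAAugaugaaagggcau
miR-301a-3p: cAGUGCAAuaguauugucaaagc
miR-130a-5p: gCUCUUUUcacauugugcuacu
miR-130b-5p: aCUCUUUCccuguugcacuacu
miR-301a-5p: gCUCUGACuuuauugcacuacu
miR-301b-5p: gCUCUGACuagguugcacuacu
The seed AGUGCAA occurred in 3 of the 581 listed miRNAs with a RefSeq sequence (0.516%), and these were the 3 family 3p arms printed here. MiR-130a-3p and miR-130b-3p were identical at 20 of 22 positions and differed by U11A and A13G, counted from 1 at the 5′ end with the base of miR-130a-3p first. Either of them shared its first 9 bases with miR-301a-3p and then diverged. The 5p arms had 3 seeds among them, and miR-301a-5p and miR-301b-5p shared CUCUGAC and were identical at 19 of 22 positions. How the authors assigned reads that match more than 1 mature miRNA is not given in the sources used here, so the split of reads between miR-130a-3p and its near copy miR-130b-3p, and between miR-301a-5p and miR-301b-5p, is uncertain.

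The 4 hairpins lie at 3 loci, given here on NCBIM37 with GENCODE vM1. Mir130a is on the minus strand at chr2:84581272-84581335 in no other annotated gene, with Ypel4 as the nearest protein-coding gene 2460 bp away. Mir130b (chr16:17124154-17124235) and Mir301b (chr16:17124493-17124589) form a cluster on the minus strand with 257 bases between them, both in an intron of 2610318N02Rik, which is transcribed in the same direction. The hairpin of miR-301a, named Mir301, is on the plus strand at chr11:86926506-86926591 in an intron of Fam33a (Ska2 in RefSeq), also in the direction of the gene. The hairpin sequences read at these positions were the same as those of RefSeq.

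In Control, mmu-miR-130a-3p was the most abundant arm at 203 ± 17.1 RPM, ahead of mmu-miR-130b-3p at 40.9 ± 3.31 RPM and miR-301a-5p at 14.9 ± 0.444 RPM (SD, n = 3 each). These 3 levels did not overlap in any library of either group. Below them came mmu-miR-301a-3p at 5.33 ± 1.61 RPM, which also stayed above all the rarer arms in every Control library. The arms mmu-miR-130b-5p at 1.73 ± 0.561, mmu-miR-130a-5p at 1.54 ± 1.08 and mmu-miR-301b-3p at 0.966 ± 0.153 RPM (SD, n = 3 each) overlapped as neighbours and have no order beyond their spread. MiR-301b-5p had 1, 1 and 2 reads. The levels span a wide range, with miR-130a-3p at rank 63 of the 778 listed miRNAs in Control and rank 84 in TGF-beta1.

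**Figure D1:**
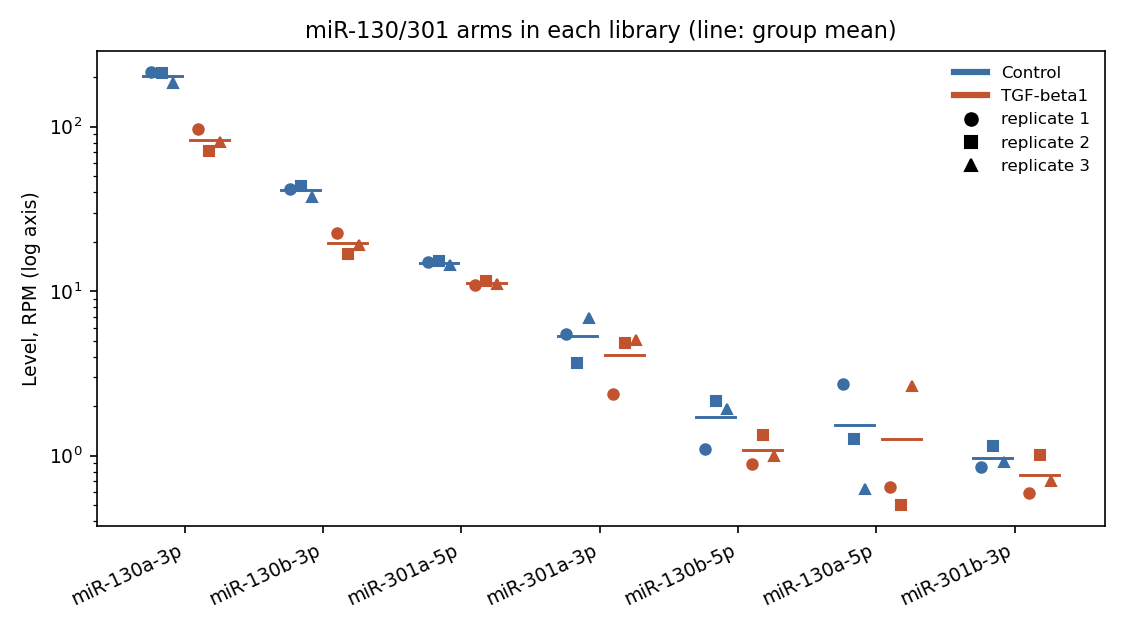
Level of each family arm in each library in RPM on a log axis, with Control in blue, TGF-beta1 in red, a marker shape for each replicate and a line at the group mean. For miR-301a-5p, miR-130b-3p and miR-130a-3p all TGF-beta1 points lie below all Control points, and for the 4 rarer arms the groups overlap; miR-301b-5p, with no read in TGF-beta1, is not drawn.

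The comparison with TGF-beta1 asked which family members change in abundance under the cytokine. MiR-130a-3p and miR-130b-3p fell, each to less than 50% of its Control level, while no other arm passed both the test and the fold threshold. Calls needed both an adjusted p below 0.05 and a log2 change of more than 1 in either direction. Of the 8 rows 7 passed the filter on low counts, and of these 2 were called lower, beside 7.84% of all 408 miRNAs tested. None was called higher (limma; 4.41% of all tested were), and by the adjusted p alone 3 were lower, beside 31.9%, and 0 higher, beside 17.4%. The log2 change was below 0 for 7 of 7 arms, where 63.0% of all tested miRNAs were below 0, and the median was -0.38 against -0.17 for all tested.

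The balance of calls over all miRNAs moved with the scaling, while no family arm was called higher under any of the settings named here. The share of all tested miRNAs called lower and higher was 5.39% and 7.60% under TMM, 5.39% and 7.35% under the median of ratios, 4.66% and 8.58% under the upper quartile, and 5.88% and 5.88% with the listed reads as the total. Under these the family had 1, 1, 0 and 1 arms called lower. With edgeR and TMM on the recovered reads 1 arm was lower, beside 10.0% lower and 11.0% higher among all tested, and with DESeq2 1 was lower, beside 7.60% and 11.3%.

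MiR-130a-3p, the solitary member on chromosome 2, stood at 213.7, 212 and 183 RPM in Control replicates 1 to 3 and at 96.7, 71.0 and 81.1 RPM in TGF-beta1 replicates 1 to 3. The highest TGF-beta1 library was well below the lowest Control library. The mean went from 203 ± 17.1 to 82.9 ± 12.9 RPM (SD, n = 3 each), or 40.9% of Control, and the log2(RPM + 1) change was -1.29 ± 0.14 (SE, limma adjusted p = 0.000282, 95% interval -1.60 to -0.97). Its fall was number 20 in size among the 408 miRNAs, and relative to the median of all miRNAs tested it was -1.11 on the log2 scale. Between 1272 and 3531 reads stood behind each value, so counting error is small beside the spread of the replicates. Scaling to the upper quartile moved the change to -0.98, just short of the fold threshold, with an adjusted p of 0.000119.

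The other arm of this hairpin was rare and its replicates spread widely. MiR-130a-5p had 2.73, 1.26 and 0.624 RPM in Control and 0.645, 0.502 and 2.63 RPM in TGF-beta1, from 9 to 45 reads a library. Control replicate 1 and TGF-beta1 replicate 3 stood high, and the groups overlapped over nearly their whole range. The log2 change was -0.20 ± 0.40 (SE, adjusted p = 0.698, 95% interval -1.12 to 0.72), so that a sizeable fall and a sizeable rise both lie within the interval.

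At the cluster on chromosome 16, miR-130b-3p had 41.7, 43.8 and 37.3 RPM in Control and 22.6, 16.8 and 19.2 RPM in TGF-beta1. The groups did not overlap, and as for miR-130a-3p the lowest Control library was replicate 3 and the highest TGF-beta1 library was replicate 1. The mean went from 40.9 ± 3.31 to 19.5 ± 2.89 RPM (SD, n = 3 each), or 47.7% of Control. The log2 change was -1.04 ± 0.14 (SE, limma adjusted p = 0.000962, 95% interval -1.37 to -0.70). The value lies close to the fold threshold. It was -0.83 under TMM, -0.84 under the median of ratios, -0.73 under the upper quartile and -0.90 with the listed reads as the total, each with an adjusted p under 0.05 but no longer past the fold threshold. Without Control replicate 2 it was -0.99 and without TGF-beta1 replicate 2 it was -0.94. Relative to the median of all miRNAs tested it was -0.86.

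MiR-130b-5p, the other side of that hairpin, had 1.09, 2.16 and 1.93 RPM in Control and 0.892, 1.34 and 0.995 RPM in TGF-beta1. Control replicate 1 lay within the range of the treated libraries, and the other Control libraries lay above all of them. The log2 change was -0.38 ± 0.18 (SE, adjusted p = 0.127), and without Control replicate 1 it was -0.56 (adjusted p = 0.0348). These values rest on 17 to 36 reads a library. The mean in TGF-beta1 was 62.3% of Control. Pooled reads in TGF-beta1 were 61.7% of Control per library read, with a 95% exact (Clopper-Pearson) interval of 43.6% to 86.8%. That interval lies below an equal level and includes the 44.7% to 51.8% of miR-130b-3p. It covers counting error only, and chi-square over its degrees of freedom between replicates was 3.02 in Control and 0.952 in TGF-beta1.

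MiR-301b-3p, which shares the cluster, had 0.850, 1.14 and 0.908 RPM in Control and 0.595, 1.005 and 0.702 RPM in TGF-beta1. TGF-beta1 replicate 2 lay above 2 of the 3 Control libraries. The log2 change was -0.16 ± 0.13 (SE, adjusted p = 0.370), and it was -0.0057 under the upper quartile. Without TGF-beta1 replicate 1 it was -0.087, without Control replicate 2 it was -0.095, and without TGF-beta1 replicate 2 it was -0.25. With 12 to 19 reads a library, the pooled reads in TGF-beta1 were 78.9% of Control per library read, with a 95% exact (Clopper-Pearson) interval of 51.0% to 122%. That interval includes an equal level in both groups, and its lower end overlaps the interval of 44.7% to 51.8% that the pooled reads of miR-130b-3p gave in the same way. MiR-301b-5p had 1, 1 and 2 reads in Control and 0 in each TGF-beta1 library, which allows up to 0.149 to 0.176 RPM, so no difference was detectable at this depth. It did not pass the filter on low counts, and with no filter its log2(RPM + 1) change was -0.11 ± 0.04 (SE, limma adjusted p = 0.0734, unadjusted 0.0228).

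At the miR-301a locus on chromosome 11 the 5p arm was the more abundant in every library. MiR-301a-5p had 15.0, 15.3 and 14.4 RPM in Control and 11.0, 11.4 and 11.1 RPM in TGF-beta1. The groups did not overlap, with SDs of 0.444 and 0.256 RPM around means of 14.9 and 11.2 (n = 3 each), or 2.98% and 2.29% of the mean. The log2 change was -0.39 ± 0.12 (SE, limma adjusted p = 0.0262), short of the fold threshold, and it was -0.094 under the upper quartile. That p did not hold under other scalings (adjusted p = 0.236 under TMM, 0.276 under the median of ratios, 0.732 under the upper quartile and 0.114 for the sum of rows), nor when any single library was left out (0.0585 to 0.0791). Of all 408 miRNAs 36.0% had every TGF-beta1 library below every Control library, and in the family 3 of 7 did.

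MiR-301a-3p had 5.46, 3.66 and 6.87 RPM in Control and 2.38, 4.86 and 5.03 RPM in TGF-beta1. TGF-beta1 replicate 1 was the lowest of all 6 libraries, whereas the other treated libraries lay between the Control values. The mean went from 5.33 ± 1.61 to 4.09 ± 1.48 RPM (SD, n = 3 each), and the log2 change was -0.33 ± 0.28 (SE, adjusted p = 0.362, 95% interval -0.97 to 0.32). Without TGF-beta1 replicate 1 the change was -0.057, without Control replicate 3 it was -0.16, and without Control replicate 2 it was -0.53. Control replicate 3, the lowest Control library for miR-130a-3p and miR-130b-3p, was the highest for miR-301a-3p, and TGF-beta1 replicate 1 was the highest treated library for those and the lowest for miR-301a-3p.

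**Figure D2:**
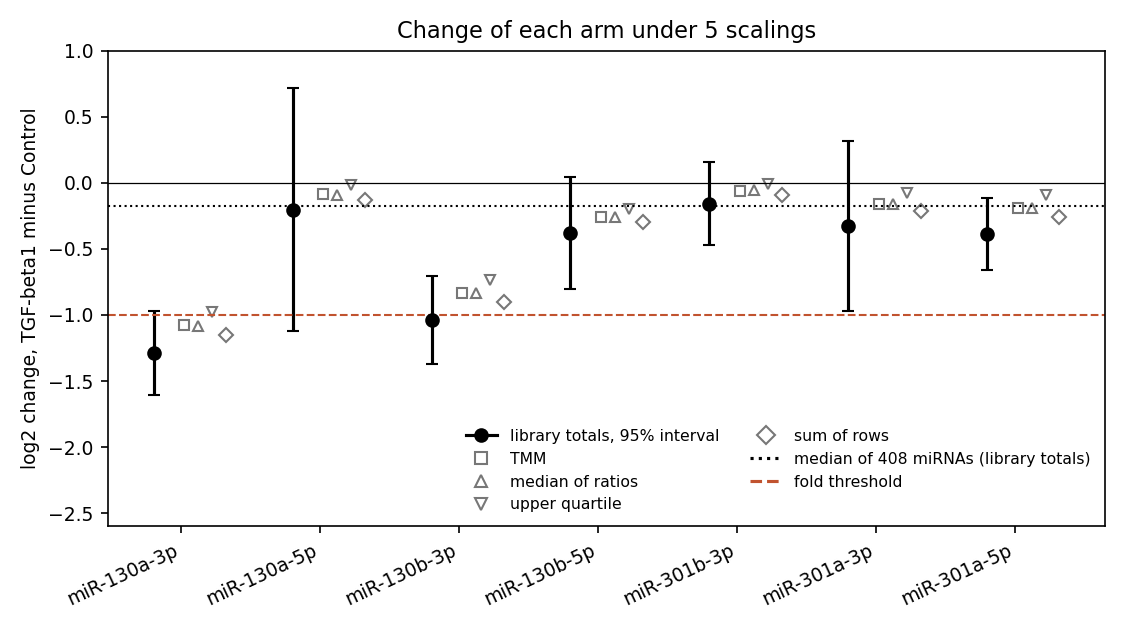
Log2 change, TGF-beta1 minus Control, of the 7 tested arms: filled points with 95% intervals for library totals, open symbols for 4 other scalings, a dotted line at the median of all 408 miRNAs and a dashed line at the fold threshold of -1. Only miR-130a-3p and miR-130b-3p have filled points below the dashed line; open symbols of all 7 arms lie nearer to 0 than the filled points, and none is above 0.

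Because the arms are read in the same libraries, the linear ratios between them do not depend on the scaling. The test asked whether loci and arms moved by different amounts. There were 9 pairs, each tested by an exact two-sided permutation test on the log2(RPM + 1) difference within a library, and with 3 against 3 libraries the p cannot go below 0.1. No pair passed. The ratio of miR-130a-3p to miR-130b-3p was 5.13, 4.84 and 4.91 in Control and 4.29, 4.23 and 4.22 in TGF-beta1, which did not overlap. The difference of the log2 changes was -0.25 ± 0.03 (SE; exact permutation p = 0.1, adjusted 0.225), and ran from -0.27 to -0.23 when any library was left out. With a pseudocount of 10 it was -0.41.

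Within the cluster, the ratio of miR-130b-3p to miR-301b-3p was 49.1, 38.4 and 41.1 in Control and 37.9, 16.7 and 27.3 in TGF-beta1. All treated libraries were below all Control libraries, although TGF-beta1 replicate 1 came close to Control replicate 2. The difference of log2 changes was -0.88 ± 0.22 (SE; exact permutation p = 0.1, adjusted 0.225). MiR-130a-3p against miR-301b-3p gave -1.13 ± 0.24 (exact permutation p = 0.1, adjusted 0.225) and also did not overlap. A pseudocount of 1 shrinks changes at the level of miR-301b-3p, and with a pseudocount of 0.1 the within-cluster difference was -0.76.

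Against miR-301a-3p the differences were -0.96 ± 0.48 for miR-130a-3p and -0.71 ± 0.47 for miR-130b-3p (exact permutation p = 0.2 and 0.3, adjusted 0.3 and 0.386), with overlapping groups. For miR-130b-3p it was -0.45 without Control replicate 2 and -1.08 without TGF-beta1 replicate 1. MiR-301b-3p against miR-301a-3p differed by 0.17 ± 0.35 (exact permutation p = 0.6, adjusted 0.675), a sign that turned when Control replicate 3 or TGF-beta1 replicate 1 was left out. 
Between the arms of a hairpin, the log2(RPM + 1) change of miR-130b-3p minus that of miR-130b-5p was -0.66 ± 0.29 (exact permutation p = 0.1, adjusted 0.225). A pseudocount of 1 shrinks changes at the level of miR-130b-5p. With a pseudocount of 0.1 the difference was -0.47 (exact permutation p = 0.4). On the linear scale the ratio was 38.2, 20.3 and 19.3 in Control and 25.3, 12.5 and 19.3 in TGF-beta1, so that TGF-beta1 replicate 1 lay above 2 Control libraries. For miR-130a the difference was -1.09 ± 0.51 (exact permutation p = 0.2, adjusted 0.3). It was -0.90 with a pseudocount of 0.1 (exact permutation p = 0.4) and -0.67 without TGF-beta1 replicate 3. The miR-130a ratio ranged from 78.3 to 294 in Control and from 30.8 to 150 in TGF-beta1. For miR-301a the ratio of 3p to 5p was 0.364, 0.239 and 0.476 in Control and 0.217, 0.424 and 0.455 in TGF-beta1, with a difference of 0.058 ± 0.36 (exact permutation p = 1.0). The 3p arm therefore led in the miR-130 hairpins and the 5p arm in miR-301a, in every library of both groups.

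**Figure D3:**
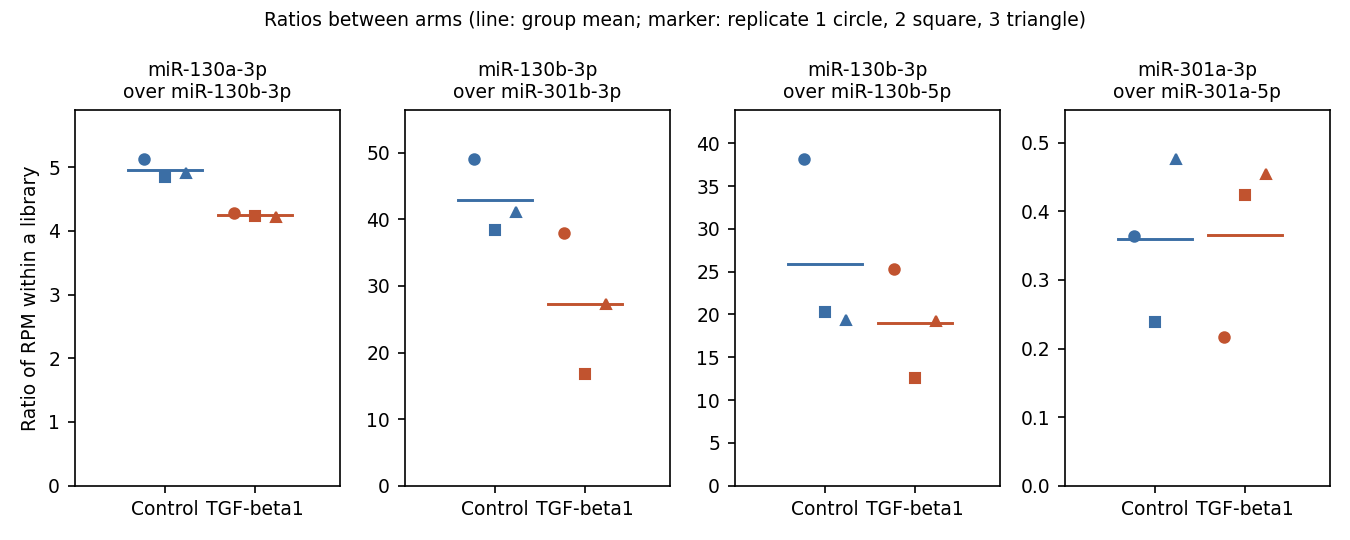
Ratio of RPM between 2 arms within each library for 4 pairs, with Control in blue, TGF-beta1 in red, a marker shape for each replicate and a line at the group mean; axes start at 0. The ratios of miR-130a-3p to miR-130b-3p lie in separate narrow bands near 4.96 and 4.24, and those of miR-301a-3p to miR-301a-5p overlap and stay below 1.

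The summed 3p arms, which carry the shared seed in the 3 members with a printed sequence, stood at 262, 260 and 228 RPM in Control and at 122, 93.7 and 105.99 RPM in TGF-beta1. The sum went from 250.1 ± 18.9 to 107 ± 14.3 RPM (SD, n = 3 each), or 42.9% of Control. MiR-130a-3p supplied 81.1% ± 0.732 of it in Control and 77.1% ± 1.75 in TGF-beta1, and miR-130b-3p 16.4% ± 0.445 and 18.2% ± 0.265. The shares of miR-301a-3p (2.17% ± 0.804 and 3.96% ± 1.76) and miR-301b-3p (0.387% ± 0.0574 and 0.741% ± 0.301) remained small in both groups (SD, n = 3 each). These sums and shares were not tested, and the sum was not worked out under other scalings. Over the 5 scalings the log2 change of miR-130a-3p, its largest part, ran from -1.29 to -0.98.

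Several other miRNAs have seeds that share the stretch GUGC with AGUGCAA, and 4 of them are shown as examples.
miR-19b-3p: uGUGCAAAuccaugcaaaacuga
miR-148b-3p: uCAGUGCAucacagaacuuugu
miR-152-3p: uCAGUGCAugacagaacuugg
miR-18a-5p: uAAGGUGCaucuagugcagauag
Of 6 miRNAs whose seeds share the longer stretch GUGCA (miR-19a/b-3p, miR-148a/b-3p, miR-152-3p and miR-721) 5 were listed and tested. The remaining one, miR-721, carries the full family seed AGUGCAA and was not analysed here. None was called lower or higher (limma; 7.84% and 4.41% of all tested were), 1 of 5 was lower by the adjusted p alone, beside 31.9% of all tested, and the median log2 change was -0.26 with a range of -0.97 to -0.16. That one was miR-148b-3p, with 72.4, 70.6 and 60.4 RPM in Control and 49.98, 25.5 and 30.9 RPM in TGF-beta1. Its groups did not overlap, and its change of -0.97 ± 0.23 (SE, adjusted p = 0.00988) stopped just short of the fold threshold. MiR-152-3p, with which it shares its seed, had 450.9 ± 28.5 RPM in Control and 404 ± 14.9 RPM in TGF-beta1 (SD, n = 3 each), a change of -0.16 ± 0.08 (SE, adjusted p = 0.162).

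Of 8 miRNAs of the miR-17 family, whose seeds hold GUGC but not GUGCA, 5 were listed and tested. The seed AAAGUGC of 4 of these also shares AGUGC with the family seed, whereas AAGGUGC of miR-18a-5p shares GUGC only. None was called lower or higher (limma), where 7.84% and 4.41% of all tested miRNAs were. By the adjusted p alone 1 of 5 was lower, beside 31.9% of all tested. The median was -0.21 with a range of -0.57 to 0.20. MiR-18a-5p had 6.24 ± 0.326 RPM in Control and 3.89 ± 0.384 RPM in TGF-beta1 (SD, n = 3 each; log2 change -0.57 ± 0.13 SE, adjusted p = 0.00892). Both lists had medians nearer to the -0.17 of all tested miRNAs than the -0.68 of the 4 family 3p arms. No arm stood at that -0.68, which falls between miR-130a-3p and miR-130b-3p (-1.29 and -1.04) and miR-301a-3p and miR-301b-3p (-0.33 and -0.16). The latter pair lay within the range of the miR-17 family.

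**Figure D4:**
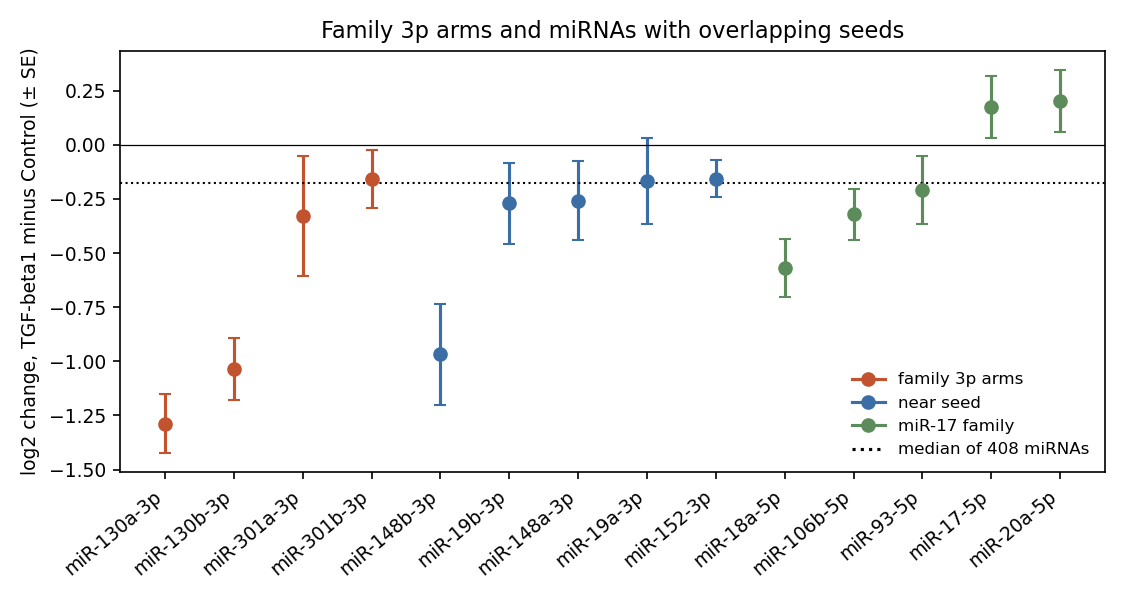
Log2 change, TGF-beta1 minus Control, with SE, of the 4 family 3p arms (red), 5 miRNAs with a near seed (blue) and 5 of the miR-17 family (green); the dotted line is the median of the 408 miRNAs tested. MiR-130a-3p at -1.29, miR-130b-3p at -1.04 and miR-148b-3p at -0.97 stand below the rest.

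The miRNAs most like each 3p arm in pattern over the 6 libraries were sought among 176 tested miRNAs outside the family. Likeness was measured by the root mean square difference of centred log2(RPM + 1). For miR-130b-3p the nearest was miR-676-3p (0.0760), then miR-378-3p (0.116) and miR-30c-2-3p (0.123). For miR-130a-3p it was also miR-676-3p (0.120), then miR-26a-5p (0.126) and miR-322-3p (0.128). MiR-676-3p went from 99.5 ± 11.8 to 45.0 ± 4.18 RPM (SD, n = 3 each). The nearest patterns to miR-301b-3p were those of miR-1981-5p (0.103), miR-10a-5p (0.104) and miR-330-3p (0.107), whose log2 changes were between -0.24 and -0.14. A pseudocount of 1 shrinks deviations at the level of miR-301b-3p, and distances with other pseudocounts were not worked out. The patterns nearest to miR-301a-3p lay farther away, with miR-34a-5p at 0.266, miR-19b-3p at 0.304 and miR-146b-5p at 0.327. These distances describe 6 libraries that share their depth and treatment groups.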

How the data were processed

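Small RNA of 6 libraries (3 Control, 3 TGF-beta1) was sequenced on an Illumina instrument. The authors trimmed and filtered reads, compared them with known mouse miRNAs using Bowtie and deposited 1 table of 778 miRNAs in what the study terms TPM. It is treated as RPM, since 100% of the deposited RPM values were whole reads (tolerance 0.002) of a recovered library total. No genome build is given for these reads in the sources used here.

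Groups were compared on log2(RPM + 1) in limma 3.58.1 under R 4.3.3, using the trend option and no term but group, over the 408 miRNAs kept by filterByExpr of edgeR 4.0.16 (minimum count 10). The Benjamini-Hochberg adjustment ran over all 408. A log2(RPM + 1) change understates the change of low miRNAs. Ratios used exact permutation tests (scipy 1.17.1). Alternatives were other scalings, pseudocounts, filters and fold thresholds, edgeR and DESeq2 1.42.0 on the recovered reads, a replicate block and each library left out. The fits were tested on simulated reads. Same-numbered libraries did not deviate together (correlations of -0.0841, -0.208 and -0.345), so the numbers were not taken as pairs.

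The members and lists were chosen with earlier results of these data known. The miRNAs named are all rows of the hairpins, 2 seed lists (at most 3 examples each) and the cell markers. Beside them stand the 3 miRNAs most like each 3p arm, from those outside the family with a mean of at least 10 RPM. Chi-square over its degrees of freedom was 43.2 to 137.9 between replicates, so none was counted as a duplicate.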

Additional observations from a re-analysis of the deposited data

How the results depend on the processing

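The number of family arms called lower was 2. It was 1 under TMM, the median of ratios, the sum of rows, a pseudocount of 10, edgeR with TMM and DESeq2, in each case because miR-130b-3p missed the fold threshold, and 0 under the upper quartile or with an absolute log2 change above 2. Leaving out each library gave 1 to 2, with 1 without Control replicate 2 or TGF-beta1 replicate 2. None was called higher under any of these. The replicate block gave 2 called lower and 0 higher, and it changed no call of a member. Shares over all tested miRNAs were not worked out for the pseudocount of 10, the threshold above 2, the block or the left-out libraries. Those counts therefore describe the family arms only. MiR-301a-5p had an adjusted p of 0.0942 under the block. Over the 5 scalings the log2 change ran from -1.29 to -0.98 for miR-130a-3p and from -1.04 to -0.73 for miR-130b-3p, and none of the 7 arms turned positive.

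Leaving out each library, the log2 change of miR-130a-5p ran from -0.61 to 0.12 and turned to 0.12 without Control replicate 1 and to 0.031 without TGF-beta1 replicate 2. Leave-one-out differences of log2 changes ran from -0.029 to 0.44 for miR-301b-3p over miR-301a-3p (-0.022 without Control replicate 3) and from -0.16 to 0.32 for miR-301a-3p over miR-301a-5p (-0.050 without TGF-beta1 replicate 2, -0.094 without TGF-beta1 replicate 3). The other 7 pairs kept their direction under every alternative run for them. MiR-130a-5p, miR-130b-5p and miR-301b-3p are limited by 9 to 45 reads a library, and the cause of the changes between settings was not tested.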
